A study of Drosophila sechellia and Drosophila melanogaster and Drosophila simulans with 18 samples.

Results

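The genes described here are the circadian clock genes of *Drosophila* and *takeout* (*to*), a clock-controlled output gene, in adult females fed hexanoic acid (HA), a fatty acid volatile of the fruit of *Morinda citrifolia*. They were chosen by symbol from a list of 10 genes (*per*, *tim*, *Clk*, *cyc*, *vri*, *Pdp1*, *cwo*, *cry*, *dbt* and *to*). The table of *D. melanogaster* named 9 of these among its 17649 genes and held *dbt* (*double-time*) under its other name, *dco* (*discs overgrown*), so that all 10 were measured in this species. The table of *D. simulans* named only *tim* among 15372 genes and that of *D. sechellia* only *per* among 17273 genes. Nearly all other genes of those 2 species were listed by a GD or GM number without a gene name, and their clock genes were not analysed here.

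To find genes that respond to HA in the specialist and in its generalist relatives, RNA of whole adult females was compared between food with 0.23% HA and control food after 24 h in *D. melanogaster* (strain 14021-0231.36), *D. simulans* (strain 14021-0251.195) and *D. sechellia* (strain 14021-0428.25), with 3 libraries in each of the 6 groups. All flies came from 1 strain per species, were no more than 3 days past eclosion, and were reared at 20 °C with 16 h of light and 8 h of darkness. The time of day at which flies were collected is not given in the sources used here. The authors' tables hold a single FPKM value (a read count scaled to the length of the transcript and the depth of the library) for each gene and diet, pooled over the libraries, so no replicate spread, error or test of the diet could be computed from them. The authors' own test columns in these tables were not used here, and each difference below is a description of 2 pooled values. Libraries of *D. sechellia* were sequenced with longer reads than the others, and each species was quantified on its own, so levels were compared within a species only.

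In the fly clock, the proteins CLOCK (*Clk*) and CYCLE (*cyc*) switch on *per* and *tim*, whose products PERIOD and TIMELESS return to the nucleus and repress CLOCK and CYCLE, closing a daily feedback loop. A second loop runs through VRILLE (*vri*), which represses *Clk*, and PDP1, which activates it, while CLOCKWORK ORANGE (*cwo*) represses targets of CLOCK and CYCLE. The kinase DOUBLE-TIME phosphorylates PERIOD and marks it for breakdown, and CRYPTOCHROME (*cry*) is the blue-light receptor that leads to the loss of TIMELESS in the light. Besides clock neurons, the loop runs in the eye, the fat body and other organs, whereas in the ovary *per* and *tim* are expressed without a daily cycle. *takeout* encodes a secreted carrier-like protein of the head fat body and antennae that is under clock control, responds to starvation and is enriched in males.

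In *D. melanogaster*, *to* showed the largest difference of the 10 genes and was lower on HA food. Of the other 9, *Pdp1*, *tim*, *vri*, *cry* and *cwo* were also lower, and *per*, *dco*, *cyc* and *Clk* were higher. Each difference is given as the log2 ratio of HA over control FPKM after 0.1 FPKM was added to both values, and a gene was counted as past the fold where this ratio was at least 0.5 away from 0 (1.41-fold) at a mean of at least 1 FPKM. All 10 genes passed the minimum. Only *to* was past the fold, and it was lower on HA food, which makes 1 of 10 genes beside 8.51% of all 10427 genes at this level. None of the 10 genes was past the fold in the other direction, beside 2.32% of all genes. At a smaller limit of 0.25 (1.19-fold), 5 genes were lower (*to*, *Pdp1*, *tim*, *vri* and *cry*) and 1 was higher (*per*), beside 22.0% of all genes lower and 13.2% higher. The median log2 ratio of the 10 genes was -0.17, against a median of 0.0028 over all genes at this level, and the central range of all genes, between the 5th and the 95th percentile, was -0.64 to 0.36. Except for *to*, every clock gene lay inside that range.

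**Figure D1:**
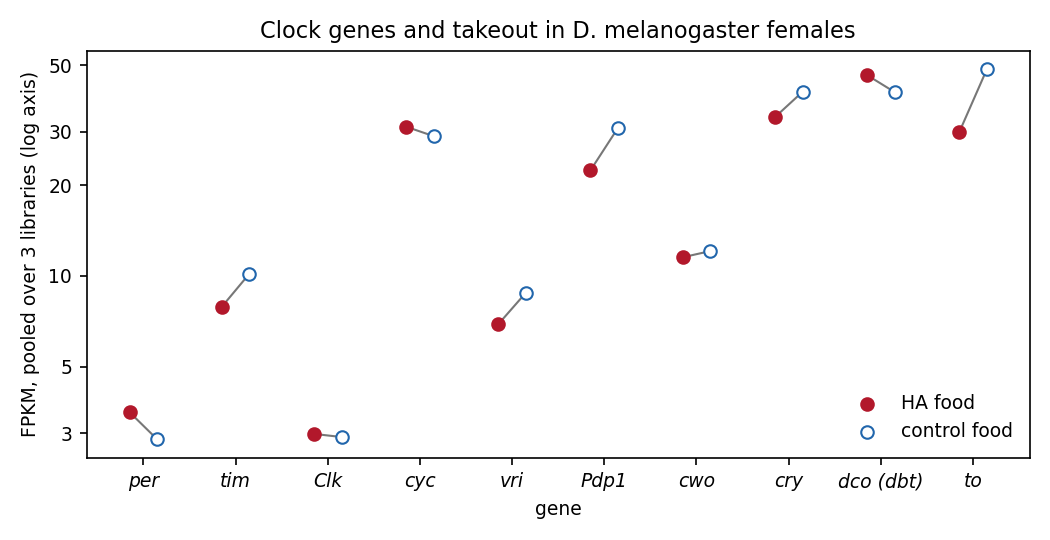
FPKM on a log axis for the 10 genes in *D. melanogaster*, with filled points for HA food and open points for control food; each point is the authors' value pooled over 3 libraries, so no error can be drawn. *to* has the widest gap (29.9 against 48.4 FPKM), *Pdp1*, *tim*, *vri* and *cry* slope the same way, and *per* and *dco* the other way.

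The repressor genes of the core loop differed in direction in *D. melanogaster*. *tim* (FBgn0014396; chromosome 2L of BDGP6, 3493986 to 3508119, minus strand) had 7.89 FPKM on HA food and 10.2 FPKM on control food, a log2 ratio of -0.36. *per* (FBgn0003068; chromosome X, 2685580 to 2692780, plus strand) had 3.53 FPKM on HA food and 2.87 FPKM on control food, a log2 ratio of 0.29. On HA food the level of *tim*, per length of transcript, was thus 2.23 times that of *per*, against 3.54 times on control food. Of all genes at this level, 14.4% had a lower ratio than *tim* and 90.2% a lower ratio than *per*.

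Both genes overlap other genes, and the sources used here do not say whether reads were counted by strand. The annotation (Ensembl BDGP6.54) places *tim* over an antisense noncoding gene with which it shares 545 exonic bases and a snoRNA gene on its own strand with which it shares 151, and the 3′ end of *per* over that of *daywake*, with which it shares 49 exonic bases on the opposite strand. *daywake* is a gene of the *takeout* family (symbol *dyw*) that the table lists as *CG2650* at the same locus as *per*. It had 4.69 FPKM on HA food and 6.18 FPKM on control food (log2 ratio -0.39), so *per* and its overlapping neighbor differed in opposite directions.

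The activator genes had nearly equal values on both diets. *Clk* (FBgn0023076; chromosome 3L, 7763233 to 7775603) had 2.99 FPKM on HA food and 2.92 FPKM on control food, a log2 ratio of 0.03 and the smallest difference of the 10 genes. *cyc* (FBgn0023094; chromosome 3L, 19813770 to 19815938) had 31.2 FPKM on HA food and 29.0 FPKM on control food, a log2 ratio of 0.10. Per length of transcript, *cyc* was 10.4 times as abundant as its partner *Clk* on HA food and 9.95 times on control food, although their proteins act as a pair. *Clk* and *per* had the lowest levels of the 10 genes, with 12.1% and 13.2% of all genes at this level below them. *Clk* shares its locus with *CG32371*, which lies within *Clk* without sharing exonic bases and had less than 0.1 FPKM on either diet.

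Among the genes of the second loop, the values of *Pdp1* and *vri* were lower on HA food and those of *cwo* were close together. *Pdp1* (FBgn0016694; chromosome 3L, 7811458 to 7867369), a long gene with 13 annotated transcripts, had 22.4 FPKM on HA food and 31.0 FPKM on control food. Its log2 ratio of -0.47 was the second most negative after *to* and the value nearest to the fold from inside, with 9.51% of all genes at this level below it. *vri* (FBgn0016076; chromosome 2L, 5288944 to 5311223) had 6.91 FPKM on HA food and 8.79 FPKM on control food, a log2 ratio of -0.34. The totals over all isoforms of *Pdp1*, which activates *Clk*, and of *vri*, which represses it, were thus both lower on HA food. *Pdp1* was at 3.24 times *vri* on HA food and 3.52 times on control food, while *Clk* itself was 2.42% higher on HA food. *cwo* (FBgn0259938; chromosome 3R, 10388258 to 10400752) had 11.5 FPKM on HA food and 12.1 FPKM on control food, a log2 ratio of -0.07. *vri* shares its locus with the noncoding gene *CR45730*, which overlaps it on the opposite strand without sharing exonic bases. *CR45730* had 0 FPKM on HA food and 0.290 FPKM on control food, under the minimum.

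*tim*, *vri*, *Pdp1*, *per* and *cwo* are all known as direct targets of CLOCK and CYCLE, a grouping that was not planned beforehand. Of these 5 genes, *Pdp1*, *tim* and *vri* had log2 ratios between -0.47 and -0.34, *cwo* was near 0 and *per* was positive. All 5 values lay inside the central range of all genes, and the part of CLOCK and CYCLE in them was not tested. FPKM values of *Pdp1*, *tim* and *vri* add all annotated isoforms of a gene, and the separate isoforms were not analysed here.

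The light receptor and the kinase also differed in opposite directions. *cry* (FBgn0025680; chromosome 3R, 19212154 to 19215442) had 33.6 FPKM on HA food and 40.7 FPKM on control food, a log2 ratio of -0.28. *dco* (FBgn0002413; chromosome 3R, 31054085 to 31061210) had 46.3 FPKM on HA food and 40.7 FPKM on control food, a log2 ratio of 0.19, and was the most abundant of the 10 genes on HA food. *cry* shares 329 exonic bases with a noncoding gene on its own strand, *lncRNA:CR46393*, and 9 exonic bases with the convergent gene *vib* (*vibrator*), listed at the same locus, which had 69.7 FPKM on HA food and 60.2 FPKM on control food (log2 ratio 0.21).

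**Figure D2:**
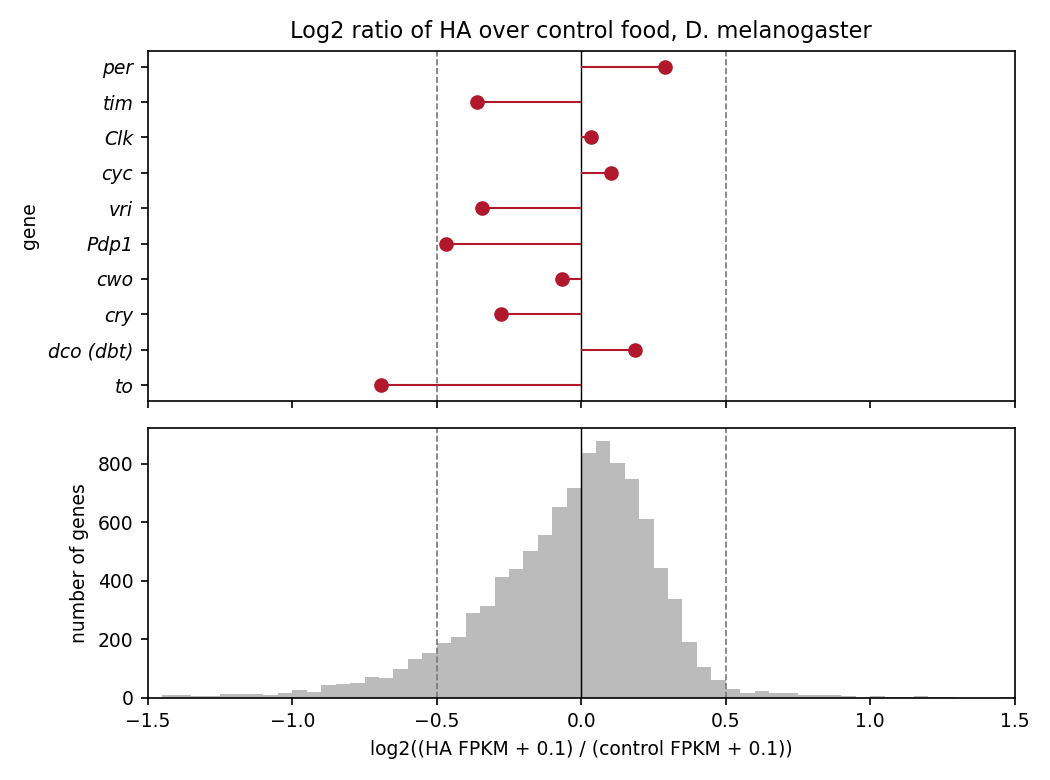
Log2 ratio of HA over control FPKM of each of the 10 genes in *D. melanogaster* (upper panel) above the number of genes in bins of the same ratio for all 10427 genes with a mean of at least 1 FPKM (lower panel, drawn from -1.5 to 1.5); dashed lines mark the fold of 0.5 on the log2 scale. *to* at -0.69 is the only gene of the 10 outside the dashed lines, and the distribution of all genes has a longer tail to the left.

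The order of the pooled levels on HA food was *dco*, *cry*, *cyc*, *to*, *Pdp1*, *cwo*, *tim*, *vri*, *per* and *Clk*. On control food *to* came first, followed by *cry*, *dco*, *Pdp1*, *cyc*, *cwo*, *tim*, *vri*, *Clk* and *per*. *to* thus held the fourth place on HA food and the first on control food. *cry* and *dco* were within 0.1 FPKM of each other on control food, as were *per* and *Clk*. With 1 pooled value per diet it is not known which neighbors in these orders differ beyond the spread between libraries.

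*to* (FBgn0039298; chromosome 3R, 25240180 to 25241668, plus strand) had 29.9 FPKM on HA food and 48.4 FPKM on control food. This is a log2 ratio of -0.69, or 0.618 times the level on control food. Of all genes at this level, 4.24% had a lower ratio. No other gene of the table shares its locus. *to* is enriched in males, and 6 marker genes of the male reproductive tract were listed, of which none reached 1 FPKM on either diet and 3 were at 0 on both.

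*to* lies between related genes that were also lower on HA food. *CG11852* ends 1284 bp before *to* and had 9.43 FPKM on HA food and 17.5 FPKM on control food, a log2 ratio of -0.88. *CG11854* starts 351 bp after *to* and had 0.928 FPKM on HA food and 1.41 FPKM on control food, a log2 ratio of -0.55. The table lists *CG11854* at the same locus as the germline gene *bam*, which had 9.26 FPKM on HA food and 7.36 FPKM on control food. All 3 genes of this group are on the plus strand and past the fold in the same direction. *CG11854*, with a mean of 1.17 FPKM, was close to the minimum of 1 FPKM, where the ratio depends most on the pseudocount.

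The *takeout* family encodes secreted proteins related to insect juvenile hormone binding proteins. Its members were taken here from general knowledge of the family, since the files do not name it, and 24 genes of it besides *to* were listed in *D. melanogaster*. Of the 22 with a mean of at least 1 FPKM, 18 had a negative log2 ratio, beside 49.6% of all genes. Past the fold were 6 genes (27.3%), all lower on HA food, beside 8.51% of all genes lower, and none was higher, beside 2.32%. *CG11852* and *CG11854*, described above as neighbors of *to*, are among these 6. The median log2 ratio of the family was -0.32, against 0.0028 over all genes. Of these 22 genes 9 share a locus with another gene in the table. Of the 13 that do not, a subset chosen after the values were seen, 3 were past the fold and the median log2 ratio was -0.26.

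The family lies in groups along the chromosomes, and members of a group were not alike throughout. Genes no more than 20 kb apart were taken as a group. In the group on 3R with *CG31189* and *CG31207*, *CG31189* had 5.94 FPKM on HA food and 9.70 FPKM on control food (log2 ratio -0.70), and *CG31207* had 25.4 FPKM on HA food and 39.9 FPKM on control food (log2 ratio -0.65). The next genes of that group, *CG7079* and *CG17279*, had log2 ratios of 0.02 and 0.06. In the group on 2L with the highest levels of the family, *CG7968* had 26.6 FPKM on HA food and 48.8 FPKM on control food (log2 ratio -0.87), while its neighbor *CG7953* had 123.8 FPKM on HA food and 144.8 FPKM on control food (log2 ratio -0.23). *CG7079*, *CG17279* and *CG7953* were chosen after their values were seen, as neighbors of genes past the fold. The genes of the 2L group share a single locus in the table, at which 8 genes are listed.

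**Figure D3:**
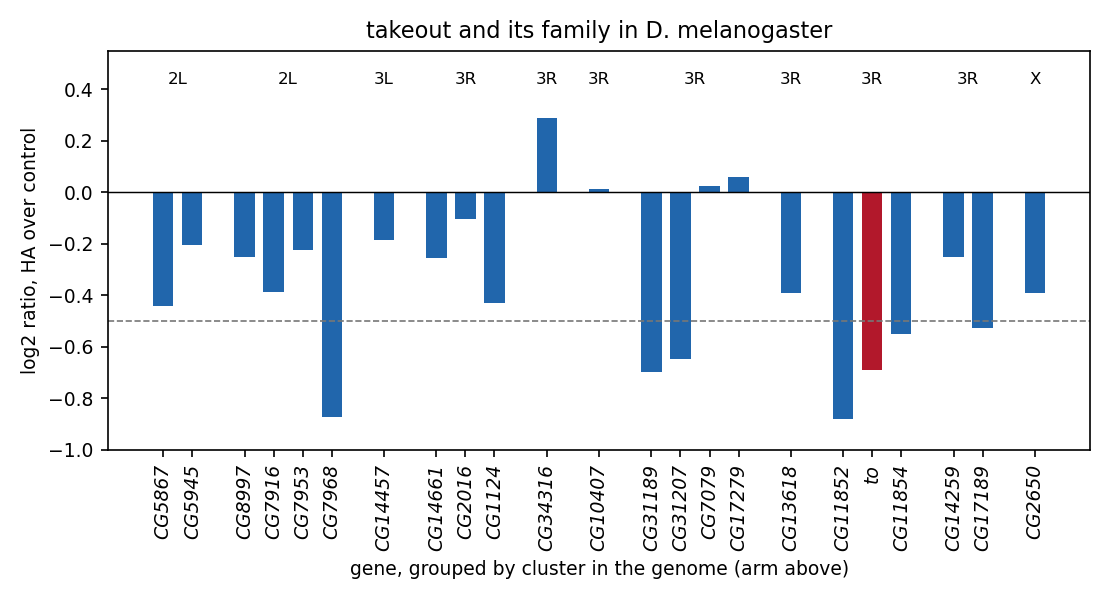
Log2 ratio of HA over control FPKM in *D. melanogaster* for *to* (red) and the 22 listed genes of its family with a mean of at least 1 FPKM (blue), ordered along the chromosomes, with a space between groups and the chromosome arm above each; the dashed line marks -0.5. The 3 adjacent genes *CG11852*, *to* and *CG11854* all pass the line, whereas in other groups single genes such as *CG7968* pass it beside neighbors that do not.

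Of the 4 other rhythmic output genes listed, 1 was past the fold and lower on HA food, beside 8.51% of all genes. The log2 ratios of the 4 genes ranged from -0.53 to -0.19, with a median of -0.38, beside 49.6% of all genes with a negative ratio. The gene past the fold was *Cyp4d21*, a cytochrome P450 gene that is regulated by sex and clock in the head, at 2.01 FPKM on HA food and 2.95 FPKM on control food. Of 9 neuropeptide and receptor genes of clock neurons and their targets with a mean of at least 1 FPKM, 8 had a negative log2 ratio. None of the 9 was past the fold (median -0.26). The lowest among these 9 was *Pdf*, the peptide that clock neurons use to keep time with each other, at 5.49 FPKM on HA food and 7.79 FPKM on control food (log2 ratio -0.50 after rounding, just inside the fold), a gene chosen after its value was seen. *CCHa1*, also listed, had a lower log2 ratio of -0.58 but was left out, as its mean of 0.892 FPKM was under the minimum.

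Of 14 genes for kinases, phosphatases and turnover of clock proteins, 1 was past the fold and lower on HA food, beside 8.51% of all genes lower, and none was higher, beside 2.32%. The median log2 ratio was 0.11, with 4 of 14 negative, beside 49.6% of all genes. The gene past the fold was *CkIIalpha*, the catalytic subunit of casein kinase 2, which phosphorylates PERIOD, at 195.1 FPKM on HA food and 344.5 FPKM on control food (log2 ratio -0.82). Its regulatory partner *CkIIbeta*, named after its value was seen, had a log2 ratio of 0.03. In *D. simulans*, *CkIIalpha* had 78.6 FPKM on HA food and 152.1 FPKM on control food (log2 ratio -0.95, or -0.83 relative to the median of all genes of that table), beside 10.7% of all genes lower past the fold. Of 5 cofactor and translation genes none was past the fold (median 0.17). Of 7 channel and light input genes with a mean of at least 1 FPKM none was past the fold (median -0.10).

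Nutrient-responsive and sex-regulated genes were examined because *to* belongs to both kinds. Of 8 nutrient-responsive genes with a mean of at least 1 FPKM, 3 were past the fold. None was higher, beside 2.32% of all genes, and all 3 were lower on HA food, beside 8.51%. These were *fit*, a satiety signal of the female fat body (228.2 FPKM on HA food and 563.6 FPKM on control food, log2 ratio -1.30), *tobi*, a glucosidase gene (11.9 FPKM on HA food and 27.6 FPKM on control food, log2 ratio -1.21), and *Lip4*, a lipase gene (21.4 FPKM on HA food and 31.9 FPKM on control food, log2 ratio -0.57). *Lip4* is known to be induced by starvation, as is *to*, whereas *fit* is a satiety signal, so genes of this list need not share a direction. The part of food intake in these values was not tested. The table lists *fit* and *tobi* at loci shared with other genes. Of 8 sex-regulated genes, of which *fit* and *Cyp4d21* also stand in lists above, 3 were past the fold, all lower on HA food, beside the same shares of all genes (*fit*, *Cyp4d21*, and *sxe2* with 1.43 FPKM on HA food and 2.29 FPKM on control food), and the yolk protein genes *Yp1*, *Yp2* and *Yp3* had log2 ratios of 0.12, 0.09 and 0.00. The highest ratio of that list was 0.32, for *Obp99b*, an odorant-binding protein gene with 125.1 FPKM on HA food and 100.1 FPKM on control food. In *D. simulans* *Obp99b* had 149.0 FPKM on HA food and 221.2 FPKM on control food, a log2 ratio of -0.57 that was -0.45 relative to the median of all genes and then inside the fold. *Thor*, of the nutrient-responsive list, and *Yp2* both had a log2 ratio of 0.45 there, inside the fold. Relative to that median they were at 0.57 and 0.58, past the fold and higher on HA food. Over all genes of *D. simulans*, 10.7% were lower and 1.87% higher past the fold before centring, and shares after centring were not computed. *Yp2* shares its locus in that species with 2 other genes. In *D. sechellia* *Obp99b* had 1237.5 FPKM on HA food and 1397.1 FPKM on control food, a log2 ratio of -0.17. *Yp2* had a log2 ratio of -0.01 there, and both were inside the fold. Among the genes of this paragraph, *Yp1*, *Yp2*, *Yp3* and *Thor*, and *Obp99b* in *D. melanogaster* and *D. sechellia*, were named after their values were seen.

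Among marker genes of organs in *D. melanogaster*, none of the eye, neuron or ovary markers was past the fold, beside 8.51% of all genes lower and 2.32% higher. Over all genes at this level 49.6% had a negative log2 ratio. Of 9 eye markers 8 had a negative log2 ratio, with a median of -0.26. Their summed level was 1254 FPKM on HA food and 1538 FPKM on control food, of which *ninaE* alone made 916 and 1142 FPKM. The eye markers *Rh5*, *Rh6* and *norpA* are also among the channel and light input genes above. The fat body markers *fit*, *Yp1* and *Yp2* are also among the sex-regulated genes, so these lists are not separate observations. All 4 neuron markers were slightly lower (median -0.10), and 4 of 6 ovary markers were higher (median 0.23). The fat body markers ranged from -1.30 (*fit*) to 1.14 (*Fbp1*), with 2 of 6 past the fold in the lower and 1 in the higher direction. Of 4 gut markers all were lower and 1 was past the fold, and of 4 muscle markers 3 were higher and 1 was past the fold, lower on HA food. The part of these organs in the values of the clock genes was not tested, and in whole flies fewer cells of a type and less RNA per cell cannot be told apart.

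**Figure D4:**
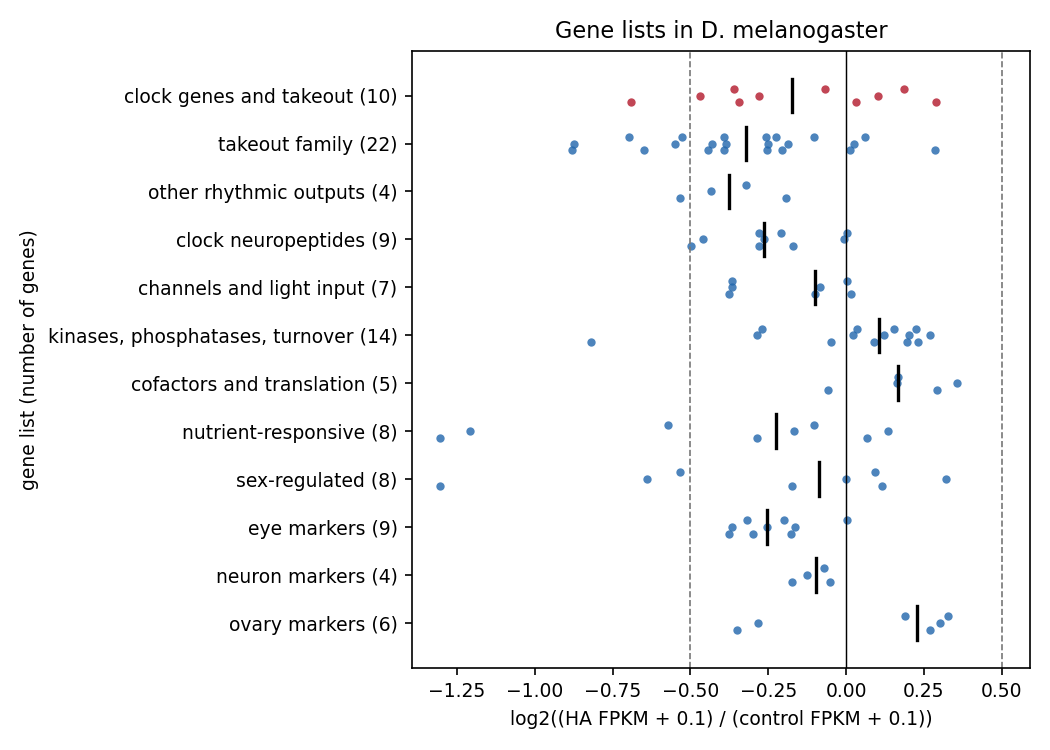
Log2 ratio of HA over control FPKM in *D. melanogaster* for single genes (points) of 12 lists with the median of each list (black line) and the number of genes with a mean of at least 1 FPKM in brackets; dashed lines mark 0.5 in each direction. The medians of the *takeout* family (-0.32) and of the other rhythmic outputs (-0.38) lie left of 0. So do those of the clock neuropeptides (-0.26), the eye markers (-0.26) and the nutrient-responsive genes (-0.23). Medians of the kinase and turnover genes (0.11), the cofactor and translation genes (0.17) and the ovary markers (0.23) lie right of 0.

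In *D. simulans*, *tim* (FBgn0020076; chromosome 2L of ASM75419v3, 3353489 to 3369870) had 6.37 FPKM on HA food and 8.38 FPKM on control food, a log2 ratio of -0.39. The table of this species was not centred on 0, since the median log2 ratio of all 9352 genes with a mean of at least 1 FPKM was -0.12. Relative to that median *tim* was at -0.27. Of all genes at this level 17.6% had a lower ratio. *tim* was not past the fold, beside 10.7% of all genes lower and 1.87% higher. The other gene listed at its locus, *GD22751*, had 0.0609 FPKM on HA food and 0.123 FPKM on control food.

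In *D. sechellia*, the species that feeds on *M. citrifolia*, *per* (FBgn0012799; scaffold_10 of dsec_caf1, 2343390 to 2347847) had 5.66 FPKM on HA food and 6.55 FPKM on control food, a log2 ratio of -0.21. *per* was not past the fold, beside 5.70% of all 12109 genes lower and 7.89% higher, and 15.9% of genes had a lower ratio. The median of all genes was 0.02. *per* was thus lower on HA food in *D. sechellia* and higher in *D. melanogaster*, whereas *tim* was lower in both species that name it. None of these differences between species was tested, and all 4 values were inside the central range of all genes of their table.

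**Figure D5:**
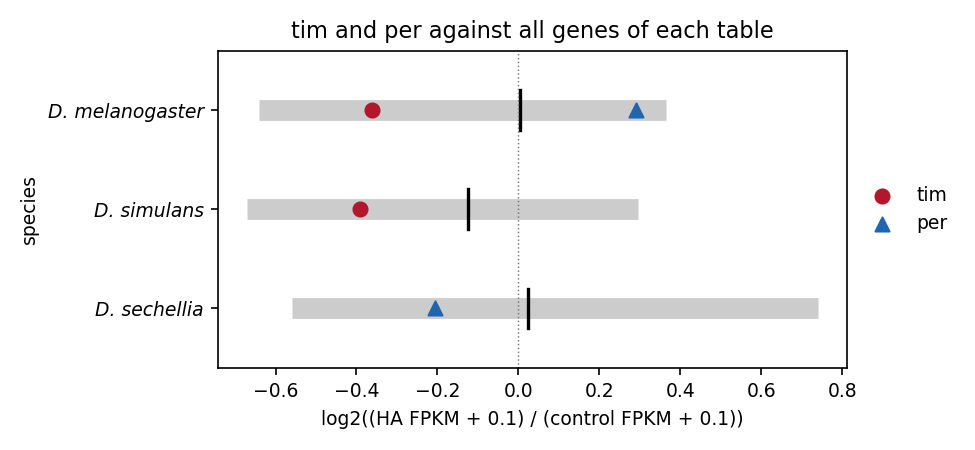
Log2 ratio of HA over control FPKM of *tim* (circles) and *per* (triangles) in the tables that name them, over the range from the 5th to the 95th percentile of all genes with a mean of at least 1 FPKM (grey bars) and their median (black lines). *tim* lies at -0.36 in *D. melanogaster* and -0.39 in *D. simulans*, and *per* at 0.29 in *D. melanogaster* and -0.21 in *D. sechellia*.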

How the data were processed

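Reads from poly-A selected RNA were checked by the authors in FastQC and aligned by Bowtie2 to BDGP6, ASM75419v3 or dsec_caf1. Expression was then estimated in Cuffdiff, separately for each species, with corrections for library size and sequence bias. Versions of these tools are not given in the sources used here. The deposited FPKM values are the authors' pooled values of 3 libraries per diet, so depth and spread per library are unknown from the files. The tables also hold the authors' own log2 fold changes, test statistics, p-values and q-values, which were not used here.

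Genes were matched by symbol after the species prefix was removed. Log2 ratios were computed with a pseudocount of 0.1 FPKM and a minimum mean of 1 FPKM. The reliability of the count past the fold was not tested. The loci of all 10 genes in *D. melanogaster* hold the gene span of the Ensembl BDGP6.54 annotation, and starts are counted from 1. The rule for named genes took the 10 genes, at most 4 genes past the fold per list, genes sharing a locus, and neighbors of *to*. Other genes, *Fbp1* among them, were named after their values were seen. No gene of the 10 was named in all 3 tables, so genes of a like pattern were not sought. A planned motif search in promoters was not run, as no genome sequence was used here. The genes, the lists and the limits were chosen with earlier results of these data known. Alternatives were pseudocounts of 1 and 0.01, no minimum or a mean of 5 FPKM, log2 limits of 0.25 and 1, and centring on the median of all genes. Computations used Python 3.11.15, pandas 2.3.3, NumPy 2.4.6 and matplotlib 3.10.9.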

Additional observations from a re-analysis of the deposited data

How the results depend on the processing

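The number of the 10 genes past the fold in *D. melanogaster* was 1 in the main setting, 0 at a log2 limit of 1 and 6 at a limit of 0.25. At 0.25, 22.0% of all genes were lower and 13.2% higher, and the share at 1 was not computed. In *D. simulans* *tim* was past the fold only at the limit of 0.25 (1 gene). The share of all genes at that limit was not computed there, but their 25th percentile was -0.31, already beyond it. The counts of the 10 genes stayed equal under the other pseudocounts, minimums and centring. The other pseudocounts and minimums were not applied to the counts of the gene lists. Genes of low level in those lists depend most on the pseudocount. Over 36 alternative values of single genes none changed sign, and the only one to move by 0.1 or more was *tim* in *D. simulans*, at -0.27 after centring. Without genes that share a locus, 3 of 13 genes of the *takeout* family were past the fold, all lower on HA food. With them it was 6 of 22, beside 8.51% of all genes lower. No paired analysis was possible because the deposited tables give 1 pooled value per diet, and for the same reason no replicate could be left out and none of the differences has an error.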
